A study of Homo sapiens with 6 samples.

Results

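Autophagy is the process by which a cell encloses part of its own cytoplasm in a double membrane, the autophagosome, and delivers it to the lysosome for breakdown. Genes of its core machinery were examined here in MV4-11, an established line of acute myeloid leukaemia cells that carries FLT3-ITD, an activating internal duplication in the receptor tyrosine kinase gene FLT3. The 35 genes were listed by name, by a rule that uses no measured value although earlier results of these data were known, and all 35 were found among the 26364 genes of the table. The DMSO group held 3 libraries from cells given the vehicle alone. The 22d group held 3 libraries from cells given 22d, known as an inhibitor of the deacetylase HDAC8, at 10 nM. Both groups were the same line in the same medium, harvested 18 hours after the addition, and the comparison asks which transcripts differ between them. Whether the 3 libraries of a group stem from independent cultures is not said in the labels; the p-values below therefore cover no more than the spread between these samples, and that spread may be technical.

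The machinery works in steps. The ULK kinase complex starts the process, and the class III phosphatidylinositol kinase complex, built around the kinase PIK3C3 and the scaffold BECN1, then marks the site with a lipid. WIPI proteins read that lipid, while ATG2 and ATG9 proteins bring membrane to it. A ubiquitin-like conjugation system next attaches small proteins of the ATG8 family (the LC3 and GABARAP proteins) to the membrane, and cargo receptors tie the material to be degraded to those ATG8 proteins. Autophagy is restrained by the growth kinase MTOR, and many of its genes respond to transcription factors of the TFE and FOXO families in other settings.

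The libraries held between 19995430 and 23749257 reads in genes, and all values are in normalized counts, the reads of a gene divided by one size factor for its library, so that a single read weighed from 0.839 to 1.14. Of 11 myeloid marker genes 10 averaged 10 or more normalized counts, and CSF2RA was listed at 0 in all libraries. The myeloid list summed to between 64935 and 82565 normalized counts in the DMSO libraries and to between 40268 and 50991 with 22d. This fall in the sum was that of LYZ, from 38415 to 56489 down to 11407 to 21870, and without it the list summed to 25389 to 30992 and 28862 to 29342. LYZ and MPO lay lower in every 22d library than in any DMSO library, while PTPRC, FLT3, CSF1R, ITGAM and MEIS1 lay higher. T cell markers summed to 0 in the DMSO libraries and to at most 2.52 with 22d, with CD2 and CD3D at 0 throughout. Epithelial markers reached at most 10.1, in 22d replicate 3, which also had reads in 19285 genes against 16268 to 17055 in the other libraries. Fibroblast markers summed to 11.4 to 24.8 with DMSO and 6.84 to 29.4 with 22d, with COL1A2 at 0. B cell markers summed to 148 to 197 with DMSO and 100 to 147 with 22d, with MS4A1 at 0. The endothelial list moved with the groups, from 223 to 317 with DMSO to 507 to 595 with 22d. Nearly all of this was PECAM1, which myeloid cells also carry. VWF also lay higher in every 22d library, at 11.86 to 28.54 against 2.28 to 9.31 with DMSO. CDH5 and KDR stayed at or under 2.52. The part of these shifts in the results was not tested.

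With 22d, 16 of the 35 autophagy genes rose and 7 fell, and 12 did not pass. The test was limma-trend on log2 of the normalized count plus 1, with calls at an adjusted p (Benjamini-Hochberg) under 0.05. The adjustment ran over the 13297 genes that averaged 10 or more normalized counts in the 6 libraries. All 35 autophagy genes passed that filter. Over all genes tested 28.5% were called higher, 29.6% lower and 58.0% in either direction, so 45.7% higher among the autophagy genes stood above the background and 20% lower stood below it. Their median log2 fold change was 0.10, against 0.01 for all genes tested, with a range from -0.68 to 2.70. At 1.5-fold or more, 11 rose and 1 fell, where 19.6% of all genes did so in each direction. The groups did not overlap, with every 22d library above every DMSO library, for 16 genes, and with every 22d library below for 9, against 32.1% and 33.3% of all genes tested. In bulk samples, fewer cells of a type and less RNA per cell cannot be told apart. In the authors' deposited table the same 16 genes were higher and the same 7 lower at that threshold (26.6% and 28.5% of these genes), and edgeR on the recovered reads also gave these 23 calls (29.8% and 28.3%). When libraries were scaled by their totals instead, 20 rose and 2 fell, against 39.7% and 20.8% of all genes, and the medians became 0.32 for the autophagy genes and 0.22 for all genes. Leaving out 22d replicate 2 gave 3 falls, and leaving out DMSO replicate 1 or DMSO replicate 2 gave 4.

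**Figure D1:**
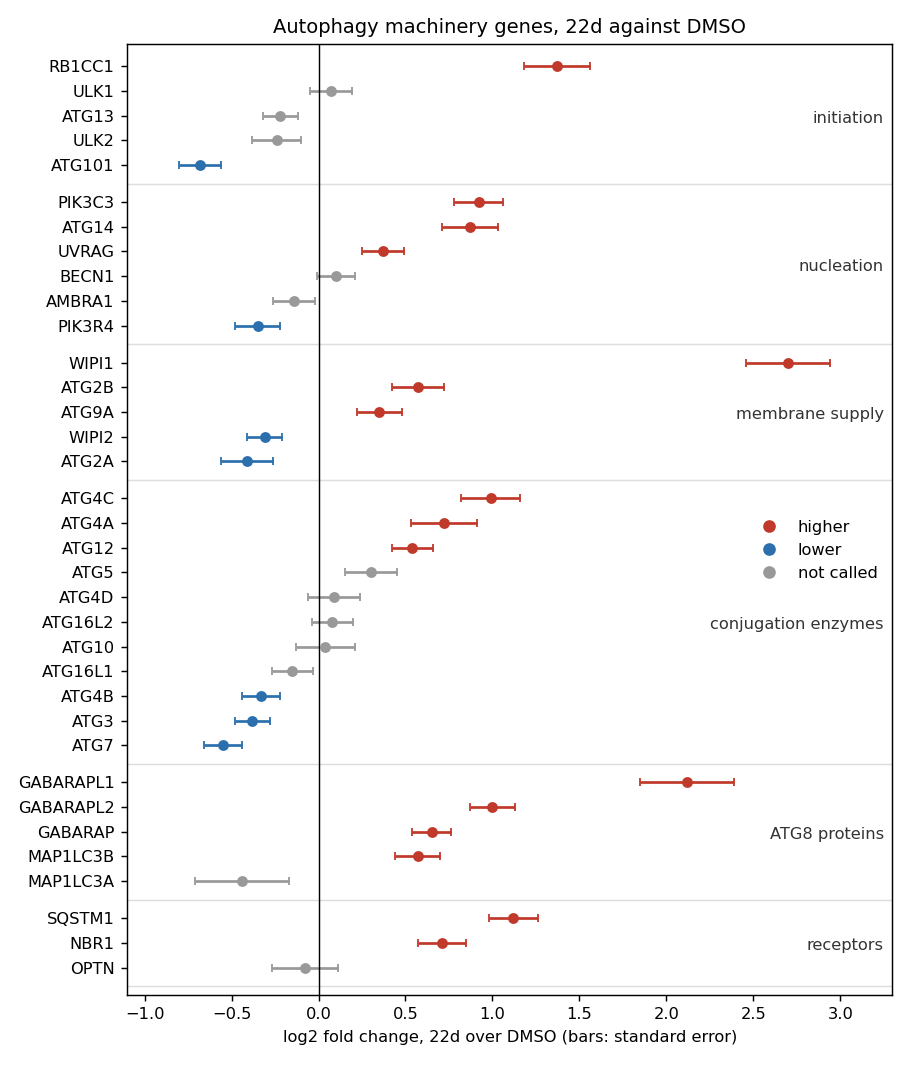
Log2 fold change of 22d over DMSO on the x axis for each of the 35 autophagy genes, grouped by step; points are limma estimates, bars the standard error, and colour the call. WIPI1 at 2.70 and GABARAPL1 at 2.12 lie furthest to the right, and the 7 genes that fell lie between -0.31 and -0.68.

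By step, the counts were small. Among the ATG8 genes 4 of 5 rose and 0 fell, with a median log2 fold change of 0.65. Among the cargo receptors 2 of 3 rose and 0 fell, with a median of 0.71. Membrane supply genes split into 3 higher and 2 lower, with a median of 0.35. In nucleation 3 of 6 rose and 1 fell, with a median of 0.24. The conjugation enzymes had 3 of 11 higher and 3 lower, or 27.3% each, close to the 28.5% and 29.6% of all genes tested, with a median of 0.08. In initiation 1 of 5 rose and 1 fell, with a median of -0.22. The differences between steps were not tested.

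Upstream sequences of the genes were taken from RefSeq (GRCh38.p14), which gave the 250 bases before its own start for 31 of the 35 genes; RB1CC1, UVRAG, ATG4D and MAP1LC3A had no entry. The RefSeq start often lies downstream of the first base of the gene in GENCODE, whose positions are printed below. As a result 12 of the 31 windows lie wholly inside the GENCODE gene, among them those of GABARAPL1, ATG16L1 and ATG5, 12 lie partly inside and 7 outside. Each was searched on both strands for CACGTG, the core of the E-box and of the element bound by TFE factors, and for GTAAACA, a forkhead core; the motifs share no overlap as searched. CACGTG was present in 2 of 31, ATG14 and ATG3. Its share was 6.31% of the 34788 windows in the table and 8.25% of the 13924 windows of genes tested. GTAAACA was present in 0 of 31, in 2.98% of all windows and in 2.15% of those of genes tested. These 4 windows are shown because they hold the pair with the motif, of which ATG14 rose and ATG3 fell, and the pair with the largest rises, WIPI1 and GABARAPL1, which hold neither. They are written 5′ to 3′ on the strand of the gene and end at the base before the RefSeq start, with any CACGTG in capitals: chr14:55411831-55412080 (minus strand), chr3:112561963-112562212 (minus strand), chr17:68457497-68457746 (minus strand) and chr12:10212627-10212876 (plus strand).
ATG14: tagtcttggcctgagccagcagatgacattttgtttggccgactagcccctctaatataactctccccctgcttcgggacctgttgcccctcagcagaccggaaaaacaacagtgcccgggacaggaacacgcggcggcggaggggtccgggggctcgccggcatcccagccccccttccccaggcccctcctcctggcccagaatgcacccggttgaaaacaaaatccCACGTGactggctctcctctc
ATG3: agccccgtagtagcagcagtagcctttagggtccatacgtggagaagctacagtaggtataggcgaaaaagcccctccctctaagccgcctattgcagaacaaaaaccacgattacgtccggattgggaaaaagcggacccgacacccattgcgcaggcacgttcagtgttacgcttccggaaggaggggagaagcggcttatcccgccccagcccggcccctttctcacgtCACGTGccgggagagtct
WIPI1: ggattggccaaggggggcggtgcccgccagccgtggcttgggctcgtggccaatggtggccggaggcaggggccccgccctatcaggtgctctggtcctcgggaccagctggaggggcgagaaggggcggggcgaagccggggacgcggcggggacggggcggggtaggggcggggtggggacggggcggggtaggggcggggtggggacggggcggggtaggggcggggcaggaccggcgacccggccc
GABARAPL1: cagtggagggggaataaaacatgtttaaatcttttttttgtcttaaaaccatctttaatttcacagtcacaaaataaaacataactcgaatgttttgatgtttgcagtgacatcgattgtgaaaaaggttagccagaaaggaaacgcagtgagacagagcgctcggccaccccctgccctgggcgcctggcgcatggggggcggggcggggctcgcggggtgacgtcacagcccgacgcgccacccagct
The CACGTG began 21 bases before the RefSeq start of ATG14 and 18 bases before that of ATG3. These starts lie 28 and 84 bases downstream of the first GENCODE base, so both motifs fall within the gene as GENCODE gives it. The RefSeq starts of WIPI1 and GABARAPL1 lie 17 and 419 bases downstream of that base. The same letters thus stood at a like distance from the RefSeq start in a gene that rose and in one that fell. A match is a description of the letters and not a binding site, and the absence of a match says only that these letters are not in this window.

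Initiation was led by RB1CC1, whose product FIP200 is the large scaffold of the ULK complex. RB1CC1 (chromosome 8, 52622456 to 52745843) held 354, 268 and 494 normalized counts in DMSO replicates 1 to 3 and 1006, 984 and 821 in 22d replicates 1 to 3. Every 22d library lay above every DMSO library, and RB1CC1 rose 2.52-fold between the group means, a log2 fold change of 1.37 (SE 0.19, adjusted p = 4.3e-05 by limma). ATG101, which encodes a partner of ATG13 within the same complex, went the other way (chromosome 12, 52069246 to 52077494). It held 1591, 1672 and 1293 normalized counts in the DMSO libraries and 956, 883 and 999 with 22d, again without overlap. ATG101 fell by 0.68 on the log2 scale (SE 0.12, adjusted p = 0.00039 by limma). The kinase genes ULK1 and ULK2 did not pass. ULK1 held 1073, 1251 and 962 normalized counts in the DMSO libraries and 1187, 1096 and 1139 with 22d, with overlap. ULK2 held 262, 303 and 304 with DMSO and 254, 235 and 244 with 22d, all lower than with DMSO but with a log2 fold change of -0.24 that did not pass (adjusted p = 0.15 by limma). ATG13, the regulatory subunit, held 4325 ± 290 and 3716 ± 35.7 (SD, n = 3 per group); its 22d libraries lay below all DMSO libraries, but its log2 fold change of -0.22 did not pass (adjusted p = 0.073 by limma). So a scaffold gene and a small subunit gene of one complex changed in opposite directions, while neither kinase gene passed the test. ULK1 passed, at 0.29 (adjusted p = 0.043), only when libraries were scaled by their totals.

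In nucleation, PIK3C3 rose, the gene of the lipid kinase VPS34 itself (chromosome 18, 41955206 to 42087830). It held 339, 303 and 353 normalized counts in the DMSO libraries and 743, 585 and 563 with 22d, a log2 fold change of 0.92 (SE 0.14, adjusted p = 0.00011 by limma). ATG14, whose product directs the kinase complex to autophagosome formation, held 255, 314 and 369 normalized counts in the DMSO libraries and 661, 527 and 521 with 22d. ATG14 (chromosome 14, 55366392 to 55411858) rose by 0.87 (SE 0.16, adjusted p = 0.00041 by limma). In both genes the groups did not overlap and 22d replicate 1 was the highest library. UVRAG, which takes the place of ATG14 in the endosomal form of the complex, held 1185, 1215 and 1138 normalized counts in the DMSO libraries and 1811, 1441 and 1366 with 22d. It rose by 0.37 (adjusted p = 0.018 by limma), a call lost without DMSO replicate 1, DMSO replicate 3 or 22d replicate 1 (0.25 without the last, adjusted p = 0.055). PIK3R4, which encodes the regulatory kinase-like subunit VPS15, fell by 0.35, from 617 ± 58.8 to 483 ± 38.7 normalized counts (SD, n = 3 per group, adjusted p = 0.030 by limma). Its call was lost when any of 4 libraries was left out (DMSO replicate 1 or 3, 22d replicate 2 or 3; adjusted p up to 0.12), with scaling by library totals (-0.13, adjusted p = 0.44) and with the replicate block (adjusted p = 0.055). BECN1 did not pass, with 924 ± 59.7 normalized counts in the DMSO libraries and 987 ± 6.89 with 22d (SD, n = 3 per group), nor did AMBRA1, a BECN1 regulator, with 1165 ± 140 and 1052 ± 73.2 (SD, n = 3 per group). BECN1 passed, at 0.32 (adjusted p = 0.026), when libraries were scaled by their totals.

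The largest rise of all 35 genes was that of WIPI1, which encodes a reader of the lipid made by PIK3C3 (chromosome 17, 68420948 to 68457513). WIPI1 held 47.8, 75.5 and 91.0 normalized counts in the DMSO libraries and 609, 381 and 400 with 22d. Its lowest 22d library stood far above its highest DMSO library. The means differed 6.49-fold, and the log2 fold change was 2.70 (SE 0.24, adjusted p = 1.3e-06 by limma). WIPI2, its relative that recruits ATG16L1, held 3310, 3435 and 3161 normalized counts in the DMSO libraries and 2902, 2524 and 2599 with 22d, and fell by 0.31 (adjusted p = 0.020 by limma). That fall depended on the scaling: it was -0.02 under quantile normalization (adjusted p = 0.86) and -0.08 with library totals (adjusted p = 0.48), and its call was also lost without DMSO replicate 1 or 2 or 22d replicate 2 or 3 (adjusted p 0.056 to 0.089).

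The lipid transfer genes ATG2A and ATG2B also moved apart. ATG2B held 361, 399 and 482 normalized counts in the DMSO libraries and 720, 572 and 552 with 22d, without overlap, and rose by 0.57 (SE 0.15, adjusted p = 0.0051 by limma). ATG2A held 1792, 2457 and 1752 with DMSO and 1255, 1472 and 1763 with 22d; the groups overlapped at 22d replicate 3, and it fell by 0.41 (adjusted p = 0.032 by limma). Leaving out DMSO replicate 2 ended the ATG2A call (-0.26, adjusted p = 0.15), as did leaving out 22d replicate 1 or 22d replicate 2, quantile normalization and library totals (adjusted p up to 0.25). ATG9A, which encodes the lipid scramblase that seeds the membrane, held 1881, 1926 and 1575 with DMSO and 2363, 1953 and 2555 with 22d. ATG9A rose by 0.35 (adjusted p = 0.029 by limma), a call lost without DMSO replicate 3, 22d replicate 1 or 22d replicate 3 (adjusted p 0.056 to 0.13).

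**Figure D2:**
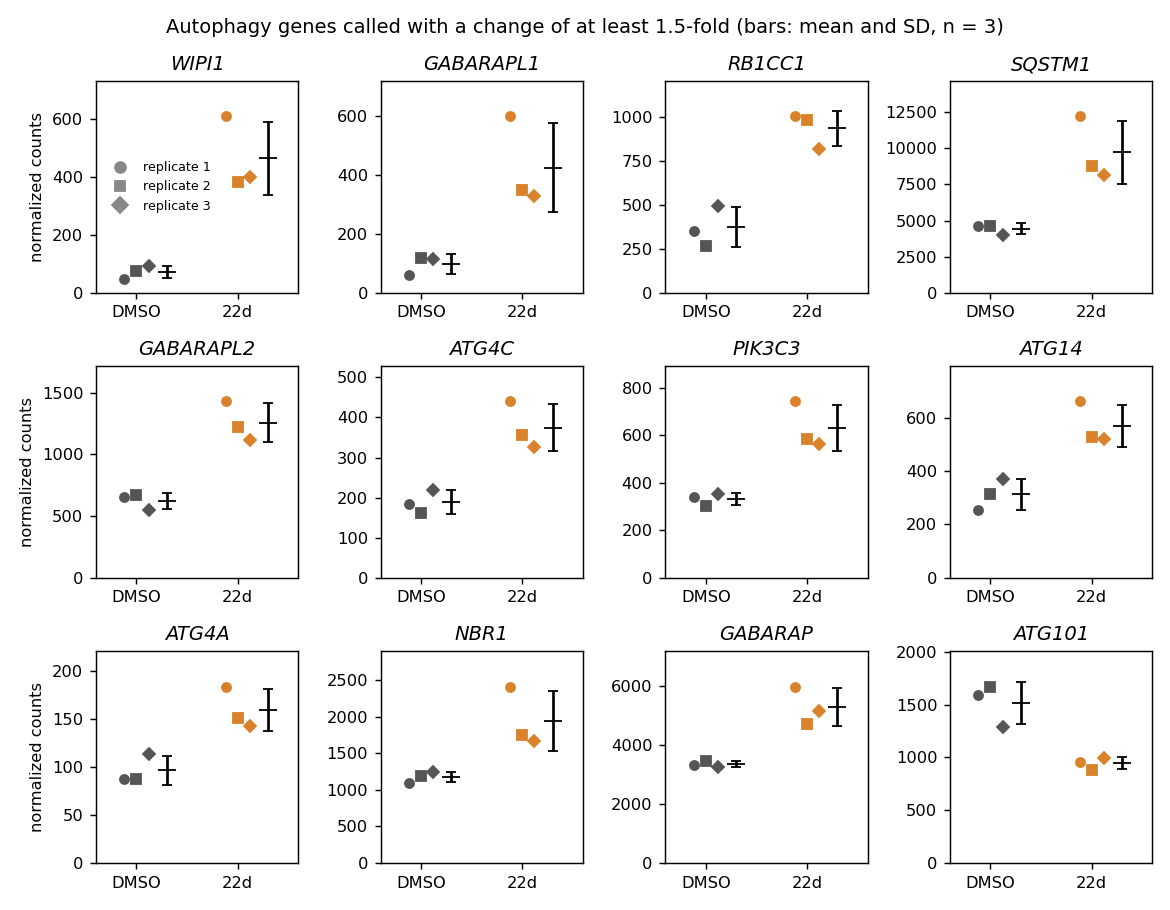
Normalized counts on the y axis, from 0, for the 12 autophagy genes called with a change of at least 1.5-fold, with DMSO and 22d on the x axis; symbols mark replicates, bars the mean and SD (n = 3). No gene shows overlap between the groups, and 22d replicate 1 is the highest 22d library in the 11 genes that rose.

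Among the conjugation enzymes, the ATG4 proteases split. ATG4 proteins trim new ATG8 proteins and later release them from the membrane. ATG4C (chromosome 1, 62784135 to 62865513) held 183, 161 and 220 normalized counts in the DMSO libraries and 440, 357 and 326 with 22d, and rose by 0.99 (SE 0.17, adjusted p = 0.00022 by limma). ATG4A (chromosome X, 108091668 to 108154671) held 87.6, 87.9 and 114 with DMSO and 184, 151 and 143 with 22d, and rose by 0.72 (SE 0.19, adjusted p = 0.0048 by limma). Both were without overlap between the groups and were low genes, at means of 188 and 96.5 with DMSO. ATG4B, the protease with the broadest activity on ATG8 proteins, held 1972, 2070 and 1688 with DMSO and 1494, 1517 and 1543 with 22d and fell by 0.33 (adjusted p = 0.021 by limma). The ATG4B call was lost under quantile normalization (-0.14, adjusted p = 0.23), with library totals (-0.11, adjusted p = 0.39) and without DMSO replicate 1 or 2 or 22d replicate 2 (adjusted p 0.056 to 0.081). ATG4D, at 997, 1181 and 799 with DMSO and 1138, 921 and 1076 with 22d, overlapped and did not pass.

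Of the enzymes that carry the ubiquitin-like proteins, ATG7 and ATG3 fell. ATG7, the activating enzyme shared by both conjugation branches (chromosome 3, 11272309 to 11557665), held 1280, 1297 and 1133 normalized counts in the DMSO libraries and 854, 869 and 813 with 22d. It fell by 0.55 (SE 0.11, adjusted p = 0.00085 by limma). ATG3, the transfer enzyme for ATG8 proteins, held 2093, 2117 and 2000 with DMSO and 1654, 1499 and 1614 with 22d, and fell by 0.38 (SE 0.10, adjusted p = 0.0055 by limma). The ATG3 call was lost under quantile normalization (-0.18, adjusted p = 0.12) and with library totals (-0.16, adjusted p = 0.18). ATG12, the ubiquitin-like protein that is joined to ATG5, rose by 0.54, from 490 ± 33.2 to 712 ± 60.8 normalized counts (SD, n = 3 per group, adjusted p = 0.0021 by limma). Its partner ATG5 did not pass at 315 ± 52.9 and 386 ± 38.3 (SD, n = 3 per group), although it did with library totals (0.52, adjusted p = 0.018). ATG10, the transfer enzyme for ATG12, stood at 141 ± 4.14 and 146 ± 21.6 (SD, n = 3 per group). The membrane-targeting partners ATG16L1 and ATG16L2 did not pass. ATG16L1 held 802, 687 and 692 with DMSO and 631, 659 and 678 with 22d, and ATG16L2 1292, 1364 and 1314 with DMSO and 1199, 1571 and 1446 with 22d. The ATG16L1 groups did not overlap, those of ATG16L2 did, and ATG16L2 passed with library totals (0.30, adjusted p = 0.043). The conjugation step thus had its ATG12 and ATG4A and ATG4C transcripts higher and its ATG7, ATG3 and ATG4B transcripts lower.

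Of the genes of ATG8 proteins all rose except MAP1LC3A. GABARAPL1 (chromosome 12, 10212458 to 10223130) held 59.2, 119 and 114 normalized counts in the DMSO libraries and 599, 348 and 327 with 22d. It rose 4.36-fold, a log2 fold change of 2.12 (SE 0.27, adjusted p = 2.7e-05 by limma), and its lowest 22d library lay above its highest DMSO library. GABARAPL2 (chromosome 16, 75566351 to 75577881) held 657, 668 and 551 with DMSO and 1429, 1222 and 1117 with 22d, a log2 fold change of 1.00 (SE 0.13, adjusted p = 2.7e-05 by limma). GABARAP (chromosome 17, 7240014 to 7242770) held 3342, 3479 and 3261 with DMSO and 5991, 4726 and 5156 with 22d. GABARAP rose by 0.65 (SE 0.11, adjusted p = 0.00023 by limma). MAP1LC3B, which encodes LC3B, the usual marker of autophagosomes, held 610, 506 and 541 with DMSO and 914, 816 and 731 with 22d and rose by 0.57 (SE 0.13, adjusted p = 0.0020 by limma). MAP1LC3A held 44.4, 69.3 and 64.7 with DMSO and 47.9, 51.1 and 31.9 with 22d, and its log2 fold change of -0.44 (SE 0.27) did not pass (adjusted p = 0.17 by limma). MAP1LC3A passed as lower only under quantile normalization (-0.69, adjusted p = 0.045).

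Levels of different genes can be compared per length, and normalized counts were divided by the exon length of each gene's coding transcripts in GENCODE release 29 for this. Per kb of exon, the 5 ATG8 genes summed to 2191 ± 88.2 normalized counts in the DMSO libraries and 3695 ± 458 with 22d (SD, n = 3 per group), 1.69-fold more. That difference had p = 0.10 by a two-sided exact permutation test, the smallest that 3 against 3 libraries allow. GABARAP made up 67.7% ± 0.855 of the sum with DMSO and 63.2% ± 2.21 with 22d, and GABARAPL2 20.9% ± 1.42 and 25.0% ± 1.37 (SD, n = 3 per group). GABARAPL1 made up 1.49% ± 0.513 and 3.78% ± 0.85, while MAP1LC3B made up 8.37% ± 0.912 and 7.38% ± 0.513 (SD, n = 3 per group). The gene with the largest fold change in the family therefore remained a small part of its total, and GABARAP remained the most abundant per length in every library. The sum and the shares depend on the length chosen, and their SD covers only the spread between libraries. Over all transcripts, GABARAPL2 has 3034 exon bases instead of 1363 and MAP1LC3B 5313 instead of 3016, while GABARAP keeps 2266.

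**Figure D3:**
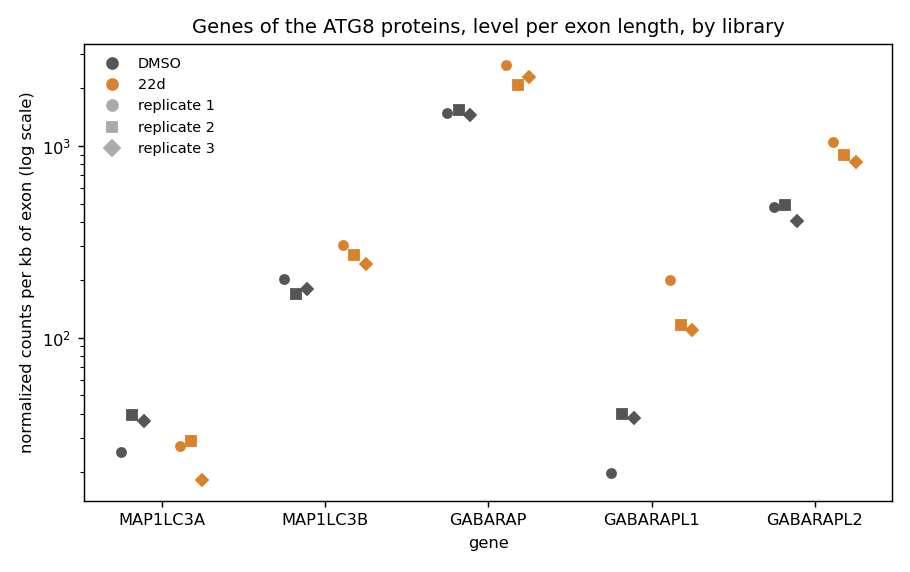
Normalized counts per kb of exon on a log y axis for the 5 genes of ATG8 proteins on the x axis, with DMSO and 22d libraries side by side; each symbol is 1 library. GABARAP is the highest gene in every library, and GABARAPL1 moves from 32.6 to 142 between group means while MAP1LC3A overlaps between the groups.

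Among the cargo receptors, SQSTM1, whose product p62 binds ubiquitinated cargo and is itself consumed by autophagy, rose the most (chromosome 5, 179806398 to 179838078). SQSTM1 held 4652, 4626 and 3981 normalized counts in the DMSO libraries and 12222, 8792 and 8180 with 22d. All 22d libraries lay above all DMSO libraries, and the log2 fold change was 1.12 (SE 0.14, adjusted p = 2.2e-05 by limma). NBR1, a related receptor (chromosome 17, 43170481 to 43211689), held 1096, 1186 and 1241 with DMSO and 2413, 1753 and 1665 with 22d. NBR1 rose by 0.71 (SE 0.14, adjusted p = 0.00070 by limma). OPTN, a receptor for damaged mitochondria and bacteria, did not pass, at 468 ± 87.5 and 448 ± 110 normalized counts (SD, n = 3 per group). Per kb of exon, GABARAP and SQSTM1 were the most abundant of the 35 genes in both groups: GABARAP came first with DMSO, at 1483 ± 48.6 against 1271 ± 109, and SQSTM1 with 22d, at 2800 ± 627 against 2335 ± 284 (SD, n = 3 per group), where the difference lay within the spread of SQSTM1. Taken library by library and with this length, SQSTM1 lay below GABARAP in every DMSO library and above it in every 22d library. At the other end, PIK3C3, ATG2B, ATG10, GABARAPL1 and MAP1LC3A stood between 27.3 and 33.7 per kb with DMSO. These ranks hold only for the exon length of coding transcripts. SQSTM1 has 3476 such bases but 7654 exon bases over all its transcripts, whereas GABARAP has 2266 in both. The order of SQSTM1 and GABARAP therefore depends on the length chosen.

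**Figure D4:**
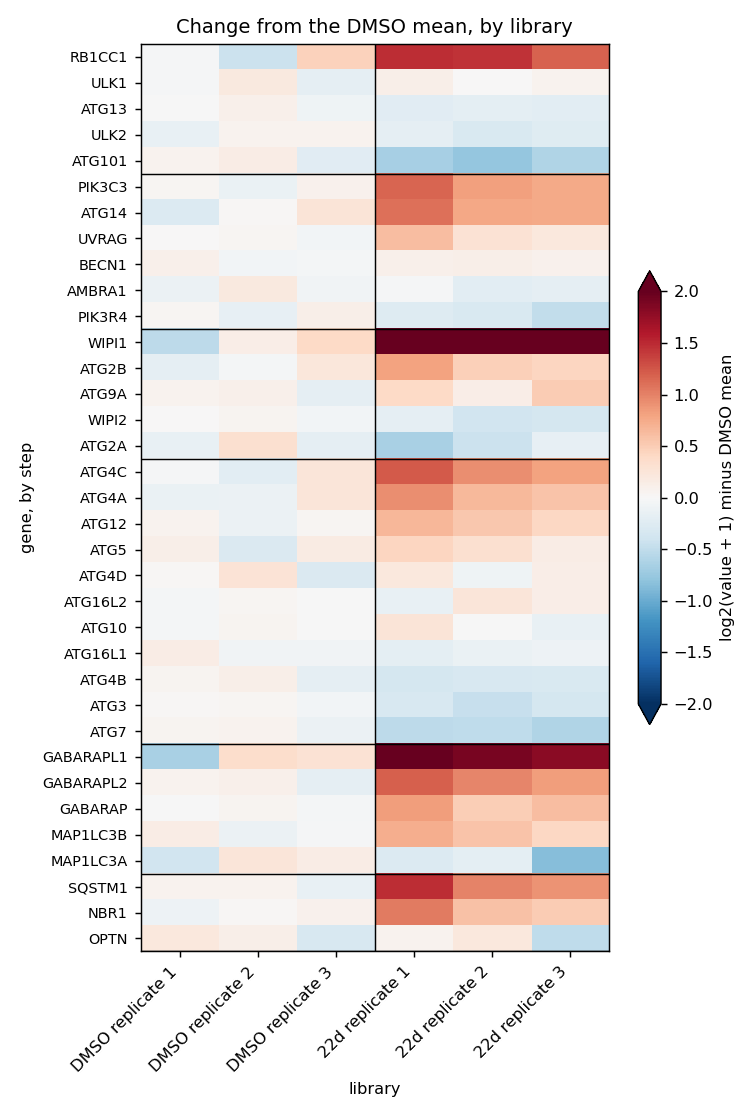
Difference of log2(value + 1) from the DMSO mean, as colour, for the 35 autophagy genes (rows, grouped by step) in the 6 libraries (columns); the scale stops at 2 in each direction. In the 22d columns the genes that rose are red, 6 of them ATG8 genes and receptors and 10 in the other 4 steps, among them WIPI1 and RB1CC1. In most of the genes that rose, 22d replicate 1 is the deepest red.

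The 22d libraries differed in the size of the response. Of the 16 genes that rose, 15 were highest in 22d replicate 1, the exception being ATG9A, while 62% of all genes called higher were highest there. The median change of the 16 genes from the DMSO mean was 1.07 in 22d replicate 1, 0.71 in replicate 2 and 0.68 in replicate 3 on the log2 scale, against 0.88, 0.75 and 0.74 for all genes called higher. For the 7 genes that fell these medians were -0.35, -0.42 and -0.36. Of these 7 genes 2 were lowest in 22d replicate 1, against 64.3% of all genes called lower. Without 22d replicate 1, 14 genes rose and 6 fell; UVRAG, ATG9A and ATG2A no longer passed. Of the 16 rises, 14 were called in each of the 16 alternatives to the main setting, UVRAG and ATG9A being the exceptions; of the 7 falls only ATG101 and ATG7 were.

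Since several related genes moved apart, the log2 ratio within 8 pairs was computed in each library; such a ratio does not depend on the scaling between libraries apart from the added 1. The log2 ratio of WIPI1 to WIPI2 was -6.08, -5.49 and -5.10 with DMSO and -2.25, -2.72 and -2.70 with 22d, an 8.01-fold shift of the ratio towards WIPI1. That of GABARAPL1 to GABARAPL2 was -3.45, -2.48 and -2.26 with DMSO and -1.25, -1.81 and -1.77 with 22d. The log2 ratio of ATG2A to ATG2B was 2.31, 2.62 and 1.86 with DMSO and 0.80, 1.36 and 1.67 with 22d, and that of MAP1LC3A to MAP1LC3B went from a mean of -3.21 to -4.22. Smaller shifts were those of ATG14 to UVRAG (difference of 22d minus DMSO 0.50), ATG4B to ATG4D (-0.41) and ULK1 to ULK2 (0.31, or 0.18 without DMSO replicate 3). In these 7 pairs the groups did not overlap, which gives p = 0.10 by a two-sided exact permutation test, the smallest possible with 3 against 3, and an adjusted p of 0.11 over the 8 ratios. Among single genes tested, the groups did not overlap for 32.1% with 22d higher and 33.3% with 22d lower. No such share was computed for ratios of other gene pairs, so the 7 pairs have no matched background. The log2 ratio of ATG16L1 to ATG16L2 overlapped, at -0.87 ± 0.16 with DMSO and -1.09 ± 0.16 with 22d (SD, n = 3 per group, exact p = 0.20).

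**Figure D5:**
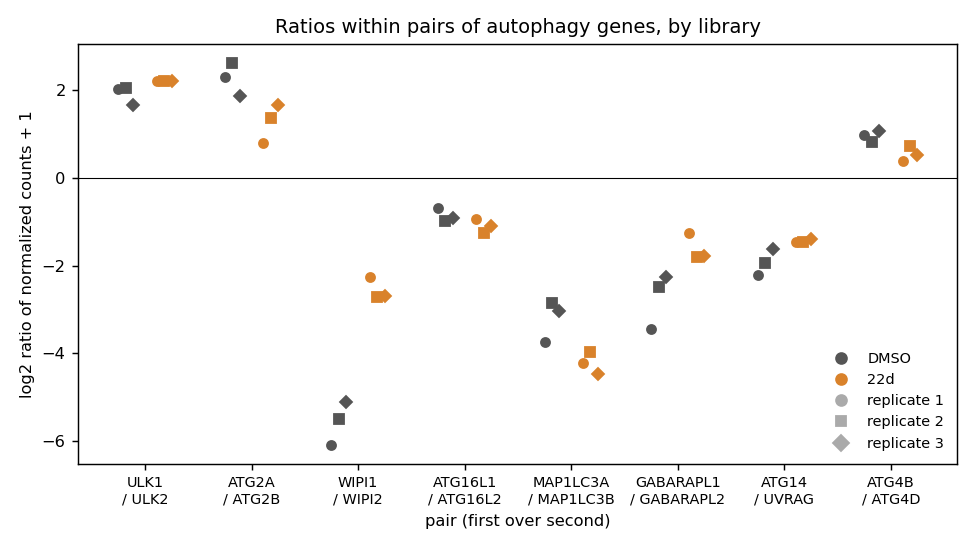
Log2 ratio of normalized counts plus 1 on the y axis for 8 pairs of autophagy genes on the x axis, each symbol 1 library, with DMSO and 22d side by side. The shift is largest for WIPI1 over WIPI2, from a mean of -5.56 to -2.56, and only ATG16L1 over ATG16L2 overlaps between the groups.

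Beyond the 35 genes, 48 further genes of the pathway were listed, of which 47 passed the filter. Of these 24 rose, 7 fell and 16 did not pass, with a median log2 fold change of 0.35 (28.5% higher and 29.6% lower over all genes). Among 14 further cargo receptors 7 rose and 1 fell. BNIP3L, a receptor for mitochondria, rose by 1.80, from 557 ± 127 to 1944 ± 496 normalized counts (SD, n = 3 per group), and TAX1BP1, which binds ubiquitinated cargo, by 1.32, while the endoplasmic reticulum receptor gene TEX264 fell by 0.50. Of 11 further genes of the forming membrane 7 rose and 0 fell, led by the scramblase gene TMEM41B at 1.21 and SH3GLB1, a UVRAG partner, at 0.98.

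Of 12 genes of autophagosome fusion with the lysosome 4 rose and 4 fell, or 33.3% each, near the 28.5% and 29.6% of all genes tested. VPS41, a subunit of the HOPS tether, rose by 1.08 and the fusion protein gene STX17 by 0.86, whereas another HOPS subunit gene, VPS18, fell by 0.54 and VAMP8, which encodes a lysosomal fusion protein, by 0.47. Of 10 upstream regulators tested 6 rose and 2 fell, or 60% and 20% against the same background. TP53INP1, which encodes a stress-induced binder of ATG8 proteins, rose by 2.97 and DRAM2 by 1.32, while RPTOR, the adaptor of MTOR complex 1, fell from 2744 ± 268 to 1505 ± 249 normalized counts (SD, n = 3 per group), and MTOR itself fell by 0.42 (adjusted p = 0.0024 by limma). PRKAA2 had 1 read in 22d replicate 3, 0 elsewhere, and was not tested.

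Reads shared with other genes could blur some values. Of the 50-base stretches of MAP1LC3B transcripts, 4.82% also occur in transcripts of genes elsewhere, mainly the near copy MAP1LC3B2, which held 0 to 10 reads per library. For the other 34 genes this share was at most 1.51%, and GABARAPL3, a copy of GABARAPL1, was listed at 0 reads. Exons on the opposite strand overlap 19 of the 35 genes, and more than 10% of the exon bases of 7: ATG101, BECN1, WIPI1, ATG4D, ATG7, GABARAP and SQSTM1. The strand setting of the counting was not given, so reads of overlapping genes on opposite strands cannot be told apart. On the same strand, AC068946.2 shares 38.8% of the exon bases of ATG9A and AC120057.2 shares 30.5% of those of GABARAP. No strand setting separates these, so both values are uncertain to that extent. Neither AC068946.2 nor AC120057.2 is listed under that name among the genes measured, so their own levels are not known. The opposite-strand gene ARSG stood at 193 ± 41.5 and 162 ± 33.2 normalized counts beside WIPI1, and MGAT4B at 1882 ± 229 and 1833 ± 45.5 beside SQSTM1 (SD, n = 3 per group), both without a call. Each has a further opposite-strand partner, AC007780.1 for WIPI1 and MRNIP for SQSTM1, that is not listed under that name and was not analysed here. Beside ATG7, VGLL4 fell by 0.43 (adjusted p = 0.0086 by limma); its part in the ATG7 value was not tested.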

How the data were processed

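RNA of MV4-11 cells was sequenced in 6 libraries, 3 per group. The submitters' processing notes name the build hg38 and the tools HTSeq, STAR, DESeq2, FastQC and cutadapt; versions, annotation release and strand setting are not given in the sources used here. A normalized signal for each library, and its average, stand in the table the authors deposited. Per the file headers, further columns give a log2 fold change, its error, a test score and a p-value, raw and adjusted. Columns were matched to libraries by arm and number. Multiplied by one size factor per library, 100% of the values were whole within 0.001 of a read, so read counts could be recovered from the deposited values.

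Normalized counts were tested with limma-trend on log2(value + 1) over genes with a mean of at least 10, without a block (R 4.3.3, limma 3.58.1). Fold changes are on that scale, which understates changes of low genes. The recovered read counts were tested with edgeR 4.0.16 (quasi-likelihood, TMM) and DESeq2 1.42.0 as alternatives. The tools were also run on simulated counts in which few genes changed, equally in both directions. That setting differs from these data, so the run cannot show how the scaling affects the calls. Gene positions and exon lengths came from GENCODE release 29, in the files' build. Python 3.11.15 and scipy 1.17.1 gave the exact permutation tests, and matplotlib 3.10.9 the figures. All 35 genes are named; every library is given for called changes of at least 1.5-fold and for the paired genes, and in each further list up to 2 called genes with the largest rise and fall are named. The genes, lists, pairs and motifs were chosen with earlier results of these data known. Same-numbered libraries were not treated as pairs. Their deviations from the group mean correlated at -0.03, -0.02 and -0.10 across genes, against -0.11 to 0.17 for the other combinations. With only 3 libraries centred in each group, these values cannot show whether same-numbered samples were handled together.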

Additional observations from a re-analysis of the deposited data

How the results depend on the processing

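Of 560 comparisons of a gene's main result with an alternative (35 genes, 16 alternatives), 513 kept direction and side of the threshold, 30 lost the call, 5 gained it and 12 changed sign. With edgeR, DESeq2, TMM scaling, both other pseudocounts (0.5 and 5) and both other filters (none and a mean of 50), the counts stayed at 16 higher and 7 lower. Scaling by library totals moved the median of all genes tested to 0.22 and that of the autophagy genes to 0.32, with 20 higher and 2 lower (39.7% and 20.8% of all genes) and 4 further pathway genes lower. Quantile normalization gave the autophagy genes a median of 0.22, 16 higher and 4 lower, and 3 further pathway genes lower. The median of all genes tested was then 0.03. More of all genes were called higher and fewer lower than in the main setting, where the shares were 28.5% and 29.6%. With no filter the median of all genes was 0.17. The fit with the replicate block gave 16 higher and 6 lower and among the 35 genes changed no call other than that of PIK3R4. With 1 library left out, 14 to 16 rose and 3 to 6 fell, and the median lay between 0.08 and 0.19 (0.19 without 22d replicate 1, 0.18 without 22d replicate 2, 0.17 without DMSO replicate 2); the lowest count of falls, 3, was without 22d replicate 2, and 4 fell without DMSO replicate 1 or DMSO replicate 2. Over all genes tested these fits called 3277 to 3612 higher and 3416 to 3833 lower, with a median between 0.00 and 0.01. Further pathway genes numbered 20 to 23 higher and 6 to 7 lower.

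The genes that changed sign were all uncalled in the main setting and in that alternative. With library totals these were ATG13 (0.00), AMBRA1 (0.08), ATG16L1 (0.08) and OPTN (0.14), and under quantile normalization ATG13 (0.10) and ATG10 (-0.14). With 1 library left out they were ULK1 (-0.02) and ATG4D (-0.06) without DMSO replicate 3, OPTN without DMSO replicate 1 (0.02) or 22d replicate 3 (0.14), ATG10 without 22d replicate 1 (-0.08) and ATG16L2 without 22d replicate 2 (-0.01). The cause was not tested. All 8 ratios kept their sign with other pseudocounts and with 1 library left out. Over all leave-one-out fits, ATG10 ranged up to 0.12 and OPTN down to -0.24.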

Other observations

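Some genes on the strand opposite to an autophagy gene changed themselves, and were picked out after their values were seen. Over all genes tested 58.0% were called in either direction. The partners HARBI1, CNTD1, GSKIP, ARSG, RPS23, AP3S1, FBXO31 and MGAT4B were tested without a call. PSME3, which overlaps BECN1 and encodes a proteasome activator, had 7217 ± 159 normalized counts in the DMSO libraries and 2863 ± 444 with 22d (SD, n = 3 per group), or -1.35 on the log2 scale (adjusted p = 1.3e-06 by limma), while BECN1 did not pass. KRI1, which overlaps ATG4D, fell by 0.54 (adjusted p = 0.0011 by limma), and THAP4, which overlaps ATG4B, by 0.61 (adjusted p = 0.00046 by limma). In contrast, SLC35A5 rose by 0.79 (adjusted p = 0.00043 by limma) opposite ATG3, which fell, and FCHSD2 rose by 0.60 (adjusted p = 0.00054 by limma) opposite ATG16L2, which did not pass. The overlap covered 2.47% of the exon bases of ATG3, 3.57% of ATG4B, 7.89% of ATG16L2 and 15.0% of ATG4D. For BECN1 it was 17.1%, over PSME3 and CNTD1 together. The part of these genes in the values of the autophagy genes was not tested.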
